A study of Homo sapiens with 10 samples.

Results

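The Iroquois genes IRX1 to IRX6 were followed through promoter capture Hi-C (PCHi-C) and RNA sequencing of human embryonic stem cells (ESCs) and the neuroectodermal cells (NECs) made from them. All 6 genes were found among the 31017 genes of the RNA count table. Each had its annotated start in 1 bait, no IRX genes shared a bait, and these 6 promoter baits were among 21833 baits in the interaction lists. The baits of IRX1, IRX2, IRX4 and IRX5 also held starts of other genes. The ESCs were of H9, an established human ESC line, and the NECs were H9 cells after 7 days of differentiation, so both cell types come from 1 line and 1 genotype. Each assay had 2 biological replicates per cell type. Totals of 19234087 to 25356382 reads were counted per RNA library. The interaction lists held 81168 to 100305 calls per replicate and gave no read numbers, and the depth of a call is therefore unknown.

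Iroquois proteins are transcription factors with a homeodomain of the TALE class, in which a short loop is extended. In mammals the genes stand in 2 clusters, each of 3 genes separated by long stretches with few other genes. They are known for dividing the neural plate and other tissues into territories along the body axes, and IRX3 for setting limits between progenitor domains of the neural tube. In the files' build, GRCh37, IRX4, IRX2 and IRX1 follow each other on chromosome 5 and IRX3, IRX5 and IRX6 on chromosome 16.

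The question put to the RNA libraries was which of these genes differ in transcript level between the pluripotent cells and their neuroectodermal derivatives. IRX1, IRX3 and IRX5 rose in NECs, IRX4 fell from an already low level, and IRX2 and IRX6 did not pass the test. The call rule was a Benjamini-Hochberg adjusted p under 0.05 in edgeR's quasi-likelihood test with an absolute log2 fold change above 1.5. Over all 17564 genes tested, 11.4% were called higher in NECs and 9.68% lower, with a median log2 fold change of 0.01, against 3 of 6 IRX genes higher and 1 lower. The adjusted p alone was passed by 61.1% of tested genes. Because these are bulk samples, fewer expressing cells and less RNA per cell cannot be told apart. The ESC and NEC libraries were run in separate lanes, so lane and cell type cannot be told apart either.

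IRX3, a regulator of neural progenitor territories (chromosome 16, 54317216 to 54320699, minus strand), showed the largest difference among the 6 genes. Its counts were 14 and 22 in the ESC libraries and 1001 and 754 in the NEC libraries. The cell types did not overlap, and the ESC libraries held few reads of the gene. In CPM, counts scaled to the normalised library size, the mean rose from 0.816 ± 0.105 (SD, n = 2 here and below) to 38.7 ± 11.5. The log2 fold change was 5.54 (SE 0.30, edgeR adjusted p = 4.28e-05).

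IRX5, the next gene of the cluster (chromosome 16, 54964774 to 54968397, plus strand), had 21 and 22 counts in ESCs and 251 and 203 in NECs. The cell types did not overlap, and the mean rose from 1.00 ± 0.157 to 9.99 ± 2.49 CPM. The log2 fold change was 3.32 (SE 0.30, edgeR adjusted p = 0.000237). IRX6, the last gene of the cluster (chromosome 16, 55358115 to 55364668, plus strand), had 13 and 9 counts in ESCs and 7 and 13 in NECs. Its libraries overlapped, at 0.526 ± 0.23 CPM in ESCs and 0.427 ± 0.141 in NECs. The log2 difference of −0.24 (SE 0.50, edgeR adjusted p = 0.693) could not be told from 0 at this depth. From the summed counts, the NEC to ESC ratio of IRX6 was 0.861, with an exact 95% counting interval of 0.446 to 1.65.

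On chromosome 5 the 3 genes each behaved differently. IRX1 (3596168 to 3601517, plus strand) had 116 and 67 counts in ESCs and 570 and 907 in NECs. It rose from 4.43 ± 2.43 to 31.7 ± 7.13 CPM, by 2.87 on the log2 scale (SE 0.36, edgeR adjusted p = 0.000853). Unlike IRX3 and IRX5, IRX1 was not near 0 in either ESC library. IRX2 (2745959 to 2752969, minus strand) was at a high level in both cell types, with 1950 and 2075 counts in ESCs and 1707 and 2328 in NECs. The means were 93.6 ± 13.7 and 87.1 ± 10.2 CPM and the replicates overlapped, with a log2 difference of −0.10 (SE 0.13, edgeR adjusted p = 0.535). IRX4, known best for its expression in the ventricles of the heart (1877541 to 1887350, minus strand), had 14 and 15 counts in ESCs and 1 and 2 in NECs. It fell from 0.674 ± 0.095 to 0.0639 ± 0.0242 CPM. The fitted log2 difference was −3.26 (SE 0.56, edgeR adjusted p = 0.00285), and the ratio of summed counts, 3 against 29, was 0.098 with an exact 95% counting interval of 0.0191 to 0.316. Its fitted difference shrank to −2.30 with a prior count of 2 and to −2.23 with shrunken DESeq2 estimates, and IRX4 was not tested when 50 counts over the 4 libraries were required.

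**Figure D1:**
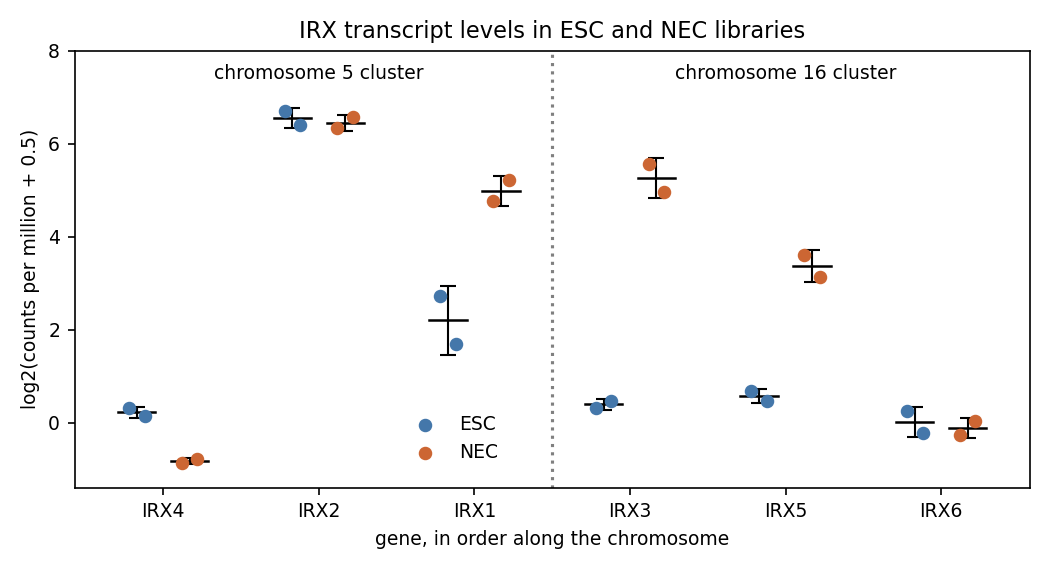
Transcript level of each IRX gene as log2(CPM + 0.5), in order along each chromosome. Points are single libraries (blue ESC, orange NEC), horizontal lines are means and error bars SDs of 2 libraries. IRX1, IRX3 and IRX5 lay higher in both NEC libraries than in both ESC libraries, IRX4 lower, and IRX2 and IRX6 overlapped.

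Levels can be compared between genes only per length, so CPM was divided by the kilobases of annotated exon, giving RPKM. In ESCs IRX2 stood alone at 27.5 ± 4.03 RPKM. IRX1 followed at 2.13 ± 1.17, then IRX5 at 0.352 ± 0.0554, IRX3 at 0.278 ± 0.0357, IRX4 at 0.227 ± 0.0321 and IRX6 at 0.178 ± 0.0778. The libraries of IRX4 and IRX6 overlapped in ESCs, and the other neighbours in that order did not. In NECs IRX2 led again at 25.6 ± 3.01 RPKM. IRX1 at 15.2 ± 3.43 and IRX3 at 13.2 ± 3.92 overlapped each other, and IRX5 at 3.51 ± 0.875, IRX6 at 0.145 ± 0.0477 and IRX4 at 0.0215 ± 0.00816 followed without overlap. These orders rest on 2 libraries per cell type and on the union of annotated exons, which need not be the transcripts in use. In NECs the places of IRX6 and IRX4 also rest on few counts, 7 and 13 for IRX6 and 1 and 2 for IRX4. In ESCs the order below IRX1 rests on 9 to 22 counts per gene and library. IRX3 and IRX4 both had 14 counts in ESC replicate 1, so only the exon lengths set them apart there.

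The genes that share a promoter bait or overlap with a member were read beside it. The counts were made without regard to strand, so reads in overlaps of opposite genes could have been assigned to either gene. CRNDE, a long noncoding RNA that starts divergently from IRX5 in the same bait, had 98 and 91 counts in ESCs and 512 and 456 in NECs. It rose by 2.27 on the log2 scale (SE 0.23, edgeR adjusted p = 0.000369). CTD-2012M11.3 lies antisense within IRX1 and rose from 32 and 14 counts to 119 and 200, by 2.64 on the log2 scale (SE 0.48, edgeR adjusted p = 0.00369). C5orf38, also named IRX2-DT, starts on the opposite strand inside IRX2 as annotated for the counts. It had 244 and 159 counts in ESCs and 298 and 438 in NECs. Its difference of 0.72 on the log2 scale (SE 0.32, edgeR adjusted p = 0.0919) did not pass the test. The IRX4 bait also holds the starts of CTD-2194D22.3, which had no count, and CTD-2194D22.4. The latter had 1 and 2 counts in ESCs and none in NECs, and neither transcript was tested.

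The promoters of IRX1 and IRX2 are shown because the genes share a cluster and differed in behaviour, IRX1 rising in NECs and IRX2 being high in both cell types. RefSeq windows (GRCh38.p14) were held for IRX1, IRX2 and IRX4, 3 of the 6 members, and none for IRX3, IRX5 and IRX6. In RefSeq the start of IRX2-DT, the C5orf38 of the counts, lies outside IRX2. Capitals mark GGGCGG on either strand, the GC box, with overlapping copies counted.
IRX1, chr5:3595582-3595831, plus strand, the 250 bases before the start: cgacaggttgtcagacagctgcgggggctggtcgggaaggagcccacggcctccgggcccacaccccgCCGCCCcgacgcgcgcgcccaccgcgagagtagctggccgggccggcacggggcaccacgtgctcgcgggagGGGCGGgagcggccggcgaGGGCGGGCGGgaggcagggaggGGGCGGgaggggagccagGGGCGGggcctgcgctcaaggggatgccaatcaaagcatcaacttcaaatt
IRX2, chr5:2751678-2751892, minus strand, from the divergent IRX2-DT start to the IRX2 start: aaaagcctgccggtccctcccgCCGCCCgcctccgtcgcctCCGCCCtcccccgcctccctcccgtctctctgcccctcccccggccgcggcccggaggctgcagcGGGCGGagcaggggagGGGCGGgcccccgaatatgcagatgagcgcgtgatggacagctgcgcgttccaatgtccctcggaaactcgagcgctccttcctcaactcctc
The IRX1 window held 6 matches and the IRX2 window 4, and 42.6% of the 35116 RefSeq windows of 250 bases held at least 1. Both windows were rich in G and C, at 75.2% for IRX1 and 72.8% for the whole 250 bases before IRX2, where the median of all windows was 58.0%. Each also held 1 CCAAT on either strand, found in 32.0% of windows, and neither held TATAAA, found in 10.7%. The IRX1 window held 1 CACGTG, a form of E-box, and the IRX2 window 0, where 6.3% of windows held it. These are letter matches and not binding sites.

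In PCHi-C, ligated pairs of HindIII fragments are pulled down with baits for promoters, so that what each promoter touches can be read at fragment resolution. CHiCAGO scores by the authors express how unlikely the reads of a pair are given its distance (a weighted p on a negative log scale), and pairs from 12 upwards are listed. The fragment that a bait was called with is its promoter-interacting region (PIR). A pair of baits was given to both ends when called from either. The merged list of a cell type was made by the authors from both replicates. All 134 fragments in the IRX calls on chromosomes 5 and 16 matched a HindIII fragment of GRCh37.

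The clusters differed widely in how many PIRs were called. In the merged lists, 31 ESC and 36 NEC PIRs belonged to the IRX3 bait (chromosome 16, 54316961 to 54323196), a higher number than 97.9% and 98.8% of baits with calls. The IRX5 bait (54961772 to 54965465), which also holds the CRNDE start, had 20 and 33, a higher number than 93.7% and 98.4% of baits. The IRX6 bait (55355218 to 55362534) had 2 and 5. On chromosome 5, the IRX4 bait (1875730 to 1892226) had 2 and 1, the IRX2 bait (2749100 to 2764564) 0 and 1, and the IRX1 bait (3590276 to 3608460) 2 and 3. The median bait with calls had 4 PIRs in both merged lists. The chromosome 5 baits were long fragments of 15.5 to 18.2 kb, longer than 88.1% to 92.5% of baits, and the part of fragment length in their low numbers was not tested. Baits of like length, here including those without a merged call, had a median of 3 to 4 PIRs.

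Replicate lists showed how firm these numbers are. For IRX5 the ESC replicates had 14 and 19 PIRs against 24 and 20 in NECs, and the cell types did not overlap. The same held for IRX1, with 2 and 1 in ESCs and 3 and 8 in NECs, and for IRX2, with 2 and 1 in ESCs and 5 and 3 in NECs. These 2 baits had few calls, and none of their merged PIRs was called in both replicates of a cell type. For IRX5, 7 merged PIRs were called in both replicates in ESCs and 7 in NECs. Over all baits with a call in any replicate, 12.7% had both NEC replicates above both ESC replicates, against 3 of the 6 IRX baits. For IRX3 the ESC replicates had 17 and 16 PIRs and the NEC replicates 10 and 21, IRX4 had 2 and 4 against 3 and 4, and IRX6 had 5 and 4 against 9 and 5. These 3 baits overlapped between cell types, and NEC replicate 1 of IRX3 was below both ESC replicates although the NEC merged list was the longer. With 2 replicates against 2, no permutation test can reach a p under 0.05, and none was made.

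**Figure D2:**
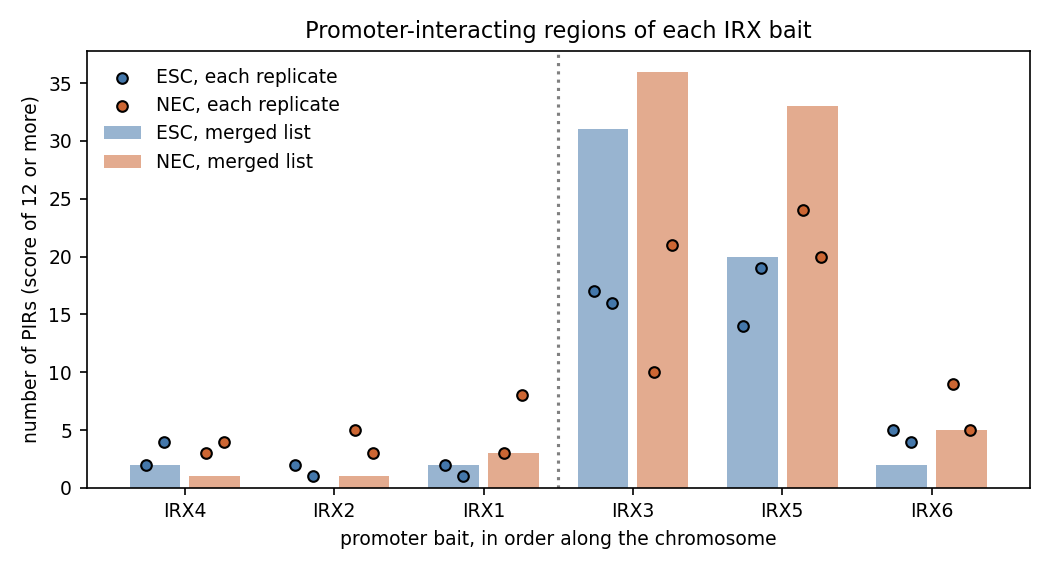
Number of PIRs with a CHiCAGO score of 12 or more for each IRX bait, in order along each chromosome. Bars are the merged lists and points the 2 replicates of each cell type (blue ESC, orange NEC). IRX3 and IRX5 stood far above the other 4 baits, and the replicates of IRX3 overlapped between the cell types.

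IRX3 and IRX5, whose baits lie 644 kb apart, were in contact with each other. It was called from both ends in all 6 lists. From the IRX3 end the score was 28.93 in the ESC merged list and 40.3 in the NEC merged list. The ESC replicates scored 17.91 and 19.41 and the NEC replicates 19.25 and 25.62. From the IRX5 end the merged scores were 32.75 for ESCs and 39.44 for NECs, where the ESC replicates gave 20.84 and 22.08 and the NEC replicates 18.74 and 34.76. NEC replicate 1 lay within or below the ESC replicates, so the higher merged NEC score did not exceed the spread between replicates. Among calls at least 500 kb apart on 1 chromosome, the higher of the 2 scores ranked 106 of 15080 in the ESC merged list and 97 of 19803 in the NEC merged list. In the replicates it ranked 757 of 36752 and 397 of 35128 in ESCs and 1566 of 44817 and 274 of 32490 in NECs. The pair was called both in ESCs, where IRX3 and IRX5 had 14 to 22 counts per library, and in NECs, where both had risen.

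The contact spread over the fragments around both promoters. IRX3 retained 6 PIRs, that is, called them in all 4 replicates, and all 6 lay at or near IRX5. Besides the IRX5 bait they were the 54965466 to 54969769 fragment, which holds IRX5 exons and scored 40.6 in ESCs and 31.88 in NECs, and the next fragments 54969770 to 54972270, at 35.08 and 37.3, and 54972271 to 54977185, at 22.85 and 21.01. On the CRNDE side they were 54958053 to 54961525, at 16.41 and 18.86, and 54917455 to 54925642, at 16.63 and 15.8. IRX5 in turn retained 5 PIRs. The IRX3 bait and the fragments 54314199 to 54315521, 54315522 to 54316960 and 54323197 to 54323741 beside it made up 4 of these, with merged scores of 16.11 to 33.72 in ESCs and 19.75 to 40.3 in NECs. The remaining retained PIR of IRX5, 53979369 to 53981628, lies in an intron of FTO, 983 kb away, at 14.26 in ESCs and 16.74 in NECs. FTO encodes a demethylase of RNA and is the next protein-coding gene before IRX3 on the chromosome.

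Windows around a loose form of the CTCF consensus are shown for the retained anchors, since CTCF, an architectural DNA-binding protein, is known at the ends of many chromatin loops. The letters searched on both strands were CCA, 2 free bases, AG, 2 free bases and GGC, given in capitals below. The match in the IRX3 bait read on the plus strand and those in the 2 retained PIRs on the minus strand.
IRX3 bait, chr16:54321713-54321812, GRCh37, plus strand: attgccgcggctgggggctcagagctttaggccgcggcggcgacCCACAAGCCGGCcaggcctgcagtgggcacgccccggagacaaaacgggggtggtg
PIR of IRX3 beyond IRX5, chr16:54973221-54973320, GRCh37, plus strand: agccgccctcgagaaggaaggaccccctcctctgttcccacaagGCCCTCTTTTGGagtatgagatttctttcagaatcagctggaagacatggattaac
PIR of IRX5 beside IRX3, chr16:54314731-54314830, GRCh37, plus strand: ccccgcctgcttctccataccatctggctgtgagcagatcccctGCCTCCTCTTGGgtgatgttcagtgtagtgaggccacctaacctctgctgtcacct
Among HindIII fragments of chromosomes 5 and 16 of like length, 14% held a match for the IRX3 bait, 10.9% for the PIR beyond IRX5 and 3.0% for the short PIR beside IRX3. The IRX5 bait and the other retained PIRs of both genes held none. The windows overlapped no annotated exon, and a match says nothing of binding.

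**Figure D3:**
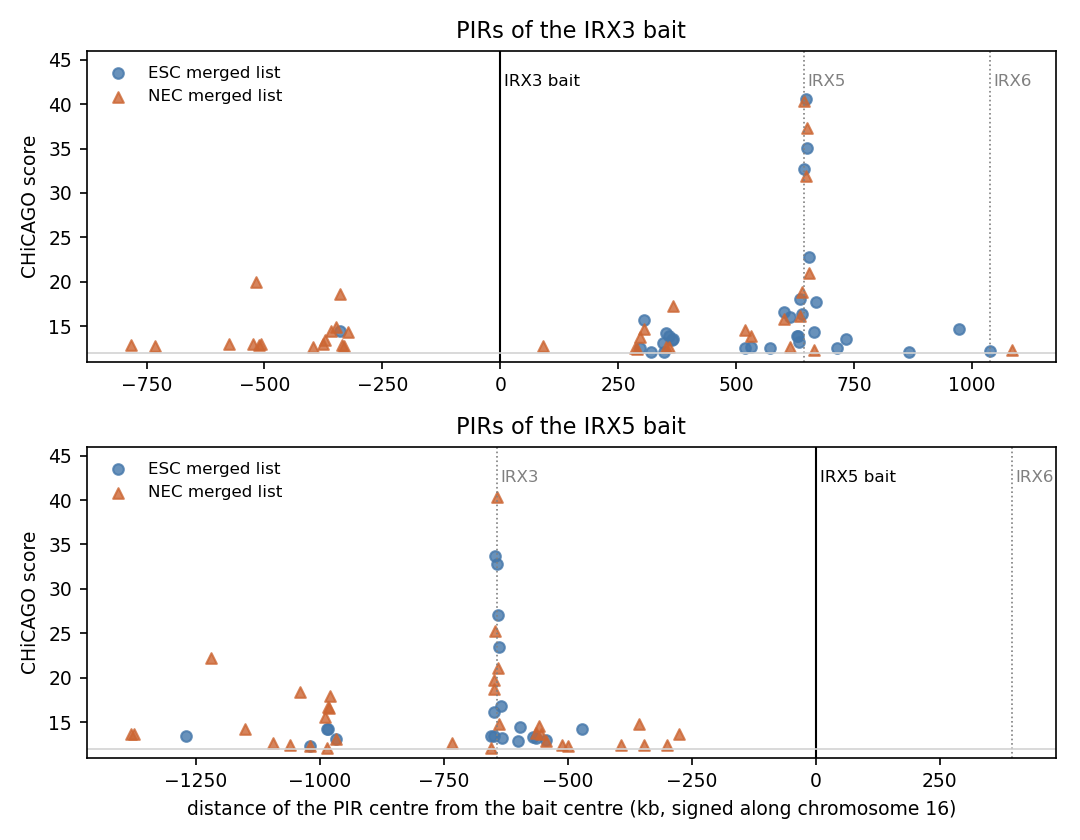
CHiCAGO score of every merged PIR on chromosome 16 against its distance from the IRX3 bait (top) or the IRX5 bait (bottom), in kb. Circles are ESC calls, triangles NEC calls, dotted lines the other IRX baits and the grey line the score of 12. In both cell types the highest scores stood at or beside the other of these baits, and triangles dominated on the FTO side, left of IRX3.

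Away from that contact, the NEC merged list held PIRs of IRX3 on the FTO side beside those on the IRX5 side. These segments were set after the values had been seen. In the ESC merged list 1 of 31 PIRs lay before IRX3, on the side of FTO, 19 lay between IRX3 and IRX5 and 9 between IRX5 and IRX6. In the NEC merged list 16 of 36 lay before IRX3, 14 of them overlapping FTO, while 14 lay between IRX3 and IRX5 and 4 between IRX5 and IRX6. The replicates differed in how much of this they showed. No PIR of IRX3 overlapped FTO in either ESC replicate, 1 of 10 did in NEC replicate 1 and 9 of 21 in NEC replicate 2. Of the 14 FTO PIRs in the NEC merged list, 1 was called in both replicates, 7 in replicate 2 alone and 6 in neither. The ESC numbers were below both NEC replicates, but by a single PIR for replicate 1.

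For IRX5 the PIRs in FTO numbered 4 of 20 in the ESC merged list and 12 of 33 in the NEC merged list. The replicates had 3 of 14 and 3 of 19 in ESCs, and 12 of 24 and 5 of 20 in NECs. Here replicate 1 carried most of the NEC calls, since 9 of the 12 were called in replicate 1 alone, 1 in replicate 2 alone and 2 in both. In the NEC merged list IRX3 and IRX5 had 8 FTO fragments in common, against 1 in ESCs, but only 2 in NEC replicate 2 and 0 in replicate 1. The same FTO intron fragment that IRX5 retained, 53979369 to 53981628, was also called with IRX3 at 14.52 in ESCs and 18.62 in NECs and with IRX6 at 12.59 in NECs. It was the only fragment with 3 IRX partners in a merged list. Over all baits, calls at least 500 kb apart on 1 chromosome numbered 15080 in the ESC and 19803 in the NEC merged list. The replicates had 36752 and 35128 such calls in ESCs, and 44817 and 32490 in NECs. The merged totals at any distance were 99302 and 99181. The part of this general difference in the FTO calls of IRX3 and IRX5 was not tested.

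**Figure D4:**
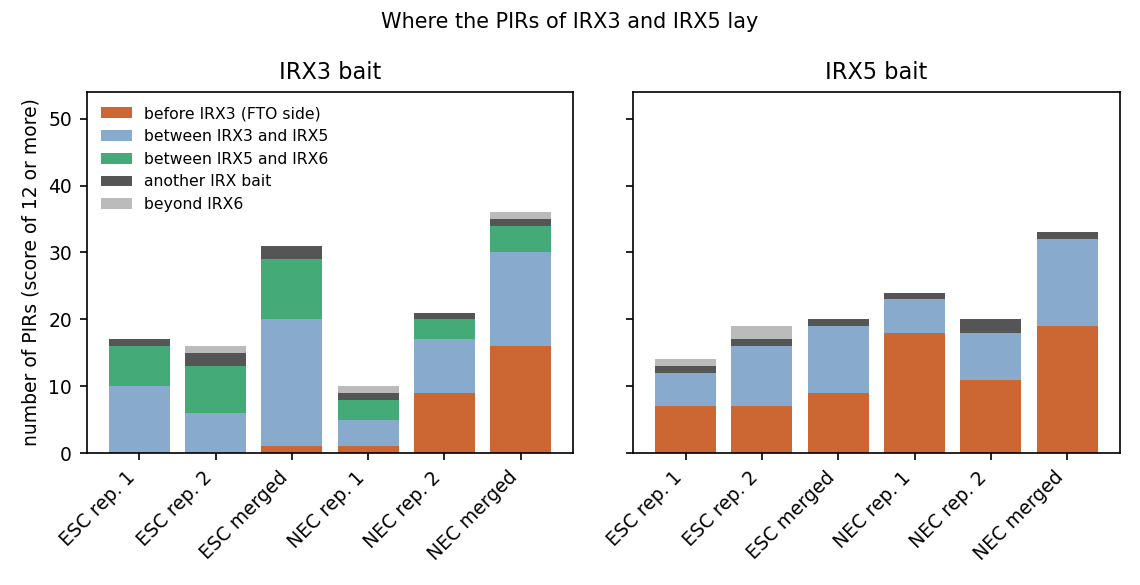
Number of PIRs of the IRX3 bait (left) and the IRX5 bait (right) in each list, split by where they lay on chromosome 16. The FTO side of IRX3 held 0 PIRs of IRX3 in both ESC replicates, 1 in NEC replicate 1 and 9 in NEC replicate 2, and the side before IRX3 held 7 and 7 PIRs of IRX5 in ESC replicates against 18 and 11 in NEC replicates.

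Rewired interactions were defined as called in both replicates of 1 cell type, in neither of the other and absent from its merged list, with a merged score in the top 20% of such pairs. IRX3 had 1 of each kind. The gained PIR, 53797995 to 53807565, lies in FTO, overlapping an annotated exon, 517 kb from the IRX3 bait. It scored 19.98 in the NEC merged list and 14.21 and 15.21 in the NEC replicates. The lost PIR, 54987564 to 54992157, lies beyond IRX5, 670 kb from IRX3, and overlaps no protein-coding gene. It scored 17.72 in the ESC merged list and 14.59 and 13.2 in the ESC replicates. Over all merged interactions 0.756% were gained and 0.806% lost, against 1 gained and 1 lost of the 104 contacts of the IRX baits.

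The IRX6 bait had no contact called in all 4 replicates. Its call with the IRX3 bait, 1039 kb away, stood at 12.25 in the ESC merged list and 12.29 in ESC replicate 2 and in no NEC list. With the IRX5 bait, 395 kb away, it was called in NEC replicate 2 at 13.54 and nowhere else. The fragments that follow the IRX5 bait were called with IRX6 in NECs and in no ESC list. The 54969770 to 54972270 fragment scored 15.77 (13.89 and 14.17 in the replicates). The 54965466 to 54969769 fragment, which holds IRX5 exons, scored 14.71 (18.29 in replicate 2). IRX6 itself did not pass the expression test. In ESCs its highest merged score was 12.46, with a fragment in an intron of FTO 1293 kb away, 54063874 to 54068375.

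On chromosome 5 no IRX pair was called in a merged list. IRX1 and IRX2, 843 kb apart, were called only in NEC replicate 2, at 12.83, and IRX1 and IRX4, 1715 kb apart, only there too, at 12.89. Both scores lay just above the limit of the lists. The firmest contact of the cluster joined the IRX4 bait to the bait 1795029 to 1802517, 85 kb away, which holds the starts of MRPL36, a protein of the mitochondrial ribosome, and NDUFS6, a subunit of respiratory complex I. It was called in all 6 lists. The merged scores were 21.76 for ESCs and 22.46 for NECs, the ESC replicates gave 14.43 and 19.98, and the NEC replicates gave 21.1 and 15.77. MRPL36 had a log2 fold change of −0.83 (SE 0.19) and NDUFS6 of −0.37 (SE 0.15), neither past the fold threshold, while IRX4 fell. IRX4 also had a merged ESC call at 12.46 with the bait of SLC6A3, the dopamine transporter, which was in ESC replicate 2 at 15.73 and in no NEC list. The highest merged scores of IRX1 were 12.71 in ESCs, with 4290626 to 4296380, and 12.85 in NECs, with the bait 4297737 to 4306828. The merged call of IRX2, at 12.45 in NECs, was with 3580480 to 3590275, the fragment next to the IRX1 bait. Of the 9 possible pairs between chromosomes 5 and 16, none was called in any of the 6 lists. The only call of an IRX bait with another chromosome joined IRX1 to 30303245 to 30307260 on chromosome 10, at 15.28 in NEC replicate 1.

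Over all 6 baits, 104 contacts were in either merged list and 32 of them, 30.8%, were in both, where 30.7% of all interactions were. IRX3 shared 17 PIRs, 54.8% of its ESC PIRs and 47.2% of its NEC PIRs, and IRX5 shared 13, or 65.0% and 39.4%. Retained contacts numbered 12, or 11.5%, against 6.35% of all interactions, and since the IRX3 to IRX5 pair counted from both ends they were 11 distinct pairs. Of the 12, 11 were on chromosome 16. Many merged PIRs rested on the replicates combined, as 12 of 31 in ESCs and 14 of 36 in NECs for IRX3 were in neither replicate list.

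The relatives and partners of the IRX genes were read in the same test. Of 12 TALE relatives, 4 rose and 1 fell, with a median log2 fold change of 1.03. MEIS2, a cofactor of HOX proteins, went from 5 and 8 counts to 2031 and 2035, a log2 fold change of 8.19 (SE 0.19), and MEIS1 from 10 and 14 to 621 and 501. PKNOX2 rose by a log2 fold change of 2.55 (SE 0.21), and MKX, a gene of tendon cells, fell from 13 and 21 counts to 1 and 3. Of 26 neural pattern genes 24 were tested, of which 17 rose and 2 fell, with a median of 5.08. FEZF2, a forebrain gene, had no count in ESCs and 228 and 75 in NECs, at least 95.6-fold higher against a floor of 3 counts over both ESC libraries. WNT1, a signal of the midbrain and dorsal neural tube, had none in ESCs and 171 and 32 in NECs, and PAX2 none in ESCs and 130 and 69 in NECs. FGF8, a signal of several organisers, fell from 250 and 488 counts to 43 and 79, and HESX1, an early forebrain gene, from 134 and 83 to 37 and 32.

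Marker lists bore on the labels and on the other cells the NEC cultures could hold. Of 10 pluripotency markers 8 fell, and of 10 neuroectoderm markers 9 rose. The summed level of the pluripotency list was 4787 to 5171 CPM in ESC libraries and 482 to 769 in NEC libraries, and that of the neuroectoderm list 494 to 580 and 1863 to 2003. Of 10 neural crest markers 6 rose and 1 fell, and the summed level of the list was 272 CPM in NEC replicate 1 and 131 in NEC replicate 2 against 137 to 149 in ESCs. PAX3 had 1416 counts in NEC replicate 1 and 441 in replicate 2, and TFAP2B 339 and 36. Differences between the NEC replicates were not particular to that list. In the same order, RAX had 170 and 21 and EN2 124 and 25, while GBX2 had 1028 and 2783 and LHX2 163 and 308. Of the pluripotency list, POU5F1 had 663 and 2749 and TDGF1 39 and 274, but FOXD3 186 and 9. IRX3 and IRX5 were higher in NEC replicate 1, while IRX1 was higher in replicate 2. Of 10 neuron markers 5 of the 9 tested rose, at 379 to 410 CPM summed in NECs against 341 to 359, and of 9 tested mesendoderm markers 7 fell. The whole mesendoderm list summed to 40.7 to 109 CPM in ESC libraries and 6.65 to 8.38 in NEC libraries. Single genes carried most of some ESC sums. NES, which was not called, had 484 and 572 CPM of the neuroectoderm list in the ESC libraries. ETS1, which fell, had 106 and 105 of the neural crest list there. TUBB3, which was not called, had 211 and 226 of the neuron list. No gene of these lists was at 0 in all libraries. The part of any of these cells in the IRX levels was not tested.

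Genes near the clusters were read against the 11.4% of all tested genes that were called higher and the 9.68% called lower. Of the 40 genes of the count table with a start within 1 Mb of the chromosome 5 cluster, 15 were tested, 2 rose and 2 fell. Besides CTD-2012M11.3, the transcript RP11-259O2.3 between IRX4 and IRX2 rose from no count to 18 and 27, at least 14.2-fold. TERT, the catalytic subunit of telomerase, was lower in NECs and had a log2 difference of −1.54 (SE 0.24, edgeR adjusted p = 0.00216), and RP11-43F13.3 fell from 22 and 45 counts to 3 and 4. Of 18 genes around the chromosome 16 cluster 8 were tested, and CRNDE was the only one called. The genes whose baits the IRX3 or IRX5 bait contacted in NECs had smaller differences, with log2 fold changes of 0.50 (SE 0.09) for FTO, 1.00 (SE 0.12) for RPGRIP1L, a protein of the ciliary transition zone, and 0.05 (SE 0.15) for AKTIP. SLC6A3, contacted by IRX4 in ESCs, had a log2 fold change of 0.16 (SE 0.52). RBL2 and GNAO1, whose baits were each called with IRX6 in 1 ESC replicate, had 0.89 (SE 0.12) and 1.01 (SE 0.17). Neither gene passed the call rule. The GNAO1 bait was also called with IRX3, in ESC replicate 2 at 13.42. The bait that holds the starts of FTO and RPGRIP1L, 53735580 to 53752106, scored 22.18 with IRX5 in the NEC merged list. That pair scored 19.37 in NEC replicate 1 and was not called in replicate 2. With IRX3 the same bait scored 13.04 in the NEC merged list and was called in neither NEC replicate. The AKTIP bait scored 12.89 with IRX3 in the NEC merged list, again in neither NEC replicate. With IRX5 the AKTIP bait was called only in NEC replicate 2, at 12.83.

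For each IRX gene, the 2 genes of most similar pattern were sought by Euclidean distance of log2(CPM + 0.5) over the 4 libraries. IRX3 was nearest to IGF2 (distance 0.262) and LEF1 (0.394), IRX5 to HHAT (0.144) and SP6 (0.293), and IRX1 to FILIP1 (0.421) and TTYH2 (0.492), all of them called higher in NECs. IRX2 was nearest to PDPR (0.12) and C11orf31 (0.145). IRX4 had the same 4 counts as BCL2L15 (distance 0) and was next to KRT15 (0.128). IRX6 was nearest to KB-1592A4.15 (0.161) and AC010323.1 (0.173). With 4 libraries such likeness is a description of these values only.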

How the data were processed

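The IRX genes, their baits and the companion lists were chosen with earlier results of these data known. Reads were mapped to GRCh37 by the authors, and the submitters' processing notes name Bowtie 1.0.0 and TopHat2 2.0.8b. RNA reads were counted by the authors per Ensembl gene, ignoring strand, and the deposited counts are raw. For PCHi-C the authors removed duplicates and deposited CHiCAGO scores of at least 12, for each replicate and for both replicates merged. Pairs under 12 are not analysed here.

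Counts were filtered by filterByExpr (minimum count 10), normalised by TMM and tested with edgeR 4.0.16 (quasi-likelihood test, prior count 0.125) in R 4.3.3, with DESeq2 1.42.0 as an alternative. The adjustment covered all 17564 tested genes. The replicates are labelled as biological, and p-values measure only the spread between these samples. Counting intervals are exact binomial intervals at 95% and cover counting error only. Lists were handled in Python 3.11.15 with pandas 2.3.3, and the scripts were tested on simulated data first. PIRs were counted as shared where the HindIII fragment was the same, and distances run between fragment centres.

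Named genes were all members, up to 3 called genes with the largest change per direction and list, and the 2 nearest patterns. Called neighbours within 1 Mb and some of the contacted ones were also named. Outside this rule, other marker and pattern genes were named for differences between NEC replicates or for their part in a summed level. Named PIRs were the highest per bait, retained and rewired ones and every pair of IRX baits. The segments around FTO were chosen after the values were seen. Alternatives were other scalings, filters, tests and a score of 15, single replicates, near-identical PIRs within 10 kb, and the replicate number as a block. Conventional Hi-C was not analysed here.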

Additional observations from a re-analysis of the deposited data

How the results depend on the processing

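IRX1, IRX3 and IRX5 stayed called higher under every setting run for expression, with log2 fold changes of 2.36 to 3.53, 5.21 to 5.82 and 3.05 to 3.55 when 1 library was left out. IRX4 stayed called lower, at −3.68 to −2.96 when 1 library was left out, −2.30 with a prior count of 2 and −2.23 with shrunken DESeq2 estimates, except where 50 counts in total were required, which left it untested and 0 IRX genes called lower. IRX2 ranged from −0.25 to 0.03 and changed sign without ESC replicate 1 (0.032) or NEC replicate 1 (0.018), and IRX6 ranged from −0.68 to 0.22 and changed sign without the same libraries (0.218 and 0.048). Neither was called. With no fold threshold, 5529 of all genes were higher and 5209 lower, where 1997 and 1700 were called. Leaving out 1 library gave 1770 to 2213 higher and 1524 to 1892 lower. The labels give no pairing of RNA libraries beyond the number, and the correlation of deviations of same-numbered libraries was 0.074. With 2 libraries per cell type this value cannot settle whether they were paired. With the replicate block, IRX3 had a log2 fold change of 5.50, 1987 genes were higher and 1711 lower, and no IRX call changed. Library size alone shifted the median of all genes to 0.07.

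Interaction numbers depended on the score limit and on pooling. At a score of 15, merged PIRs in ESCs and NECs fell to 10 and 10 for IRX3, 6 and 11 for IRX5, 0 and 1 for IRX6, 0 and 0 for IRX1, and 1 in ESCs for IRX4 and 0 in NECs for IRX2. Shared PIRs were then 7 for IRX3, 4 for IRX5 and 0 for IRX1, 1 IRX pair was left in ESCs, retained contacts fell to 5, and 0 were gained and 0 lost. Without 1 replicate, PIRs in ESCs and NECs numbered 16 to 17 and 10 to 21 for IRX3, 14 to 19 and 20 to 24 for IRX5, 4 to 5 and 5 to 9 for IRX6, 1 to 2 and 3 to 8 for IRX1, 1 to 2 and 3 to 5 for IRX2, and 2 to 4 and 3 to 4 for IRX4. Shared PIRs were then 6 to 7 for IRX3, 5 to 10 for IRX5 and 0 for IRX1, and IRX pairs 1 to 2 in ESCs and 1 to 4 in NECs. When PIRs within 10 kb counted as the same, IRX1 shared 2 PIRs and retained contacts numbered 23. With any merged score, 4 contacts were gained and 3 lost. Other starts of the IRX genes and counting from the IRX end moved no number by over 1.5 times. The causes were not tested.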
